A study of Mus musculus with 8 samples.

Results

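The store-operated and ER calcium handling genes were followed in mouse dendritic cells grown from bone marrow, a type of cell that presents antigen to T cells. The set holds 10 of the 55880 genes in the deposited table, found by symbol: Orai1, Orai2, Orai3, Stim1, Stim2, Itpr1, Itpr2, Itpr3, Atp2a2 and Atp2b1. Each symbol stood on 1 row, and all 10 had enough reads to be tested, among 14074 tested genes. Expression was measured by RNA sequencing of polyadenylated RNA in 8 libraries. A gene said to rise or fall did so in RNA, and protein, channel make-up and calcium entry are not part of these values. Marrow for both groups was taken from wild-type C57BL/6 males, 6 weeks old, and cells were cultured for 6 days with IL-4 at 10 ng/mL and GM-CSF at 20 ng/mL. The 4 Control libraries are from untreated cells. The 4 LMF libraries are from cells kept for 24 h with ITRs, a name the labels do not spell out, and then given a low-frequency magnetic field. RNA was collected 6 h after treatment. One label field gives all 8 libraries the same magnetic treatment, so the groups rest on the titles. No group with ITRs or the field alone was analysed here, so their effects cannot be told apart. The labels do not say if each library is its own mouse or culture, so a p-value here speaks only of the spread among these 8 libraries, which may be technical.

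Store-operated calcium entry is the main route by which immune cells keep a calcium rise going after a receptor has been triggered. Inositol trisphosphate opens its receptors, the Itpr proteins, and calcium leaves the endoplasmic reticulum (ER). The Stim proteins of the ER membrane sense the fall in stored calcium and open the Orai channels of the plasma membrane. The pump SERCA2, encoded by Atp2a2, refills the ER, and the plasma membrane pump PMCA1, encoded by Atp2b1, removes calcium from the cell. In dendritic cells, as in other immune cells, calcium rises feed calcineurin and NFAT signalling.

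Orai1 fell and Orai2 rose. Stim2 rose, while Stim1 was called lower near the threshold, with overlapping groups and the call lost in 8 of 18 alternative fits. Orai3, the third Orai gene, also fell (log2 fold change -0.28), and its promoter is not shown. The promoters of Orai1, Orai2, Stim1 and Stim2 are shown, since Orai1 and Orai2, like Stim1 and Stim2, changed with opposite signs. They are the 250 bases before the RefSeq transcription start (GRCm38.p6), 5′ to 3′ on the gene's strand, at chr5:123014824-123015073 (plus strand) for Orai1, chr5:136170657-136170906 (minus strand) for Orai2, chr7:102267569-102267818 (plus strand) for Stim1 and chr5:53998273-53998522 (plus strand) for Stim2. Capitals mark matches on either strand to 4 motifs. The first is the GC box with the letters GGGCGG. The second is the box named by its letters CCAAT. The others are the E-box, spelled CACGTG, and the longer CLEAR element, which contains the E-box.
Orai1: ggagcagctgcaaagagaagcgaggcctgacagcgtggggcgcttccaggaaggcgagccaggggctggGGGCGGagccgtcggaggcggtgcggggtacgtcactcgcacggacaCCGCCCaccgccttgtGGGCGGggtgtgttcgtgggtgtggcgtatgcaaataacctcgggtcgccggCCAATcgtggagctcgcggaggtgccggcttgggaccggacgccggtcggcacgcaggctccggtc
Orai2: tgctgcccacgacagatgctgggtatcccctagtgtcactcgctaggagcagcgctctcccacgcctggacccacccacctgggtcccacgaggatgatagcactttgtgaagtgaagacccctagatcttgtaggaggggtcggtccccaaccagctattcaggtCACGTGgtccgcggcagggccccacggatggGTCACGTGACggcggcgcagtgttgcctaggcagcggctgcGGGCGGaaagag
Stim1: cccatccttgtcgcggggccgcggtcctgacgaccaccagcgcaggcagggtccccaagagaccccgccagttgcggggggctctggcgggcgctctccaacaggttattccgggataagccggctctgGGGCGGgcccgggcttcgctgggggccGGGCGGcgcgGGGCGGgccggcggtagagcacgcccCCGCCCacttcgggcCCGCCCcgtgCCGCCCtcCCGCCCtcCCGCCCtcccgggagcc
Stim2: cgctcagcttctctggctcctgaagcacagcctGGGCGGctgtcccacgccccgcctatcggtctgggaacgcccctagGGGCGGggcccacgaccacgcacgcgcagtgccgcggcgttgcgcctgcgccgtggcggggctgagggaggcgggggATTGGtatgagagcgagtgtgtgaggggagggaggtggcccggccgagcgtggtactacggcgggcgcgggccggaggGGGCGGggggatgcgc

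All 4 windows are rich in G and C, with 70.8% in Orai1, 63.6% in Orai2, 78.4% in Stim1 and 74.8% in Stim2, where the median of 32851 RefSeq promoter windows of the same length was 52.4%. The GC box, which 32.7% of all windows hold, occurs 3 times in Orai1, 1 time in Orai2, 8 times in Stim1 and 3 times in Stim2. The CCAAT box (33.9% of all windows) is present in Orai1 and Stim2 and has no match in the windows of Orai2 and Stim1. The Orai2 window holds the E-box 2 times (6.02% of all windows), and 1 of these lies within the CLEAR element (0.24% of all windows). The E-box and the CLEAR element were added after the Orai2 sequence had been read. Their shares over all windows therefore do not measure how unusual these matches are. The E-box also occurs 1 time in the window of Itpr3, which is not shown. No match was found in these 4 windows for AP-1 (TGANTCA, 6.75% of all windows), CRE (TGACGTCA, 1.55%), kappaB (0.356%), the UPR element (TGACGTGG, 0.563%) or the NFAT core (TGGAAA, 18.6%). The NFAT core occurs 1 time in 1 window of Atp2b1, which is not shown. RefSeq windows were found for 8 of the 10 genes, and the GC box was present in all of them. Their G and C content ran from 57.2% in Orai3 to 80.8% in 1 window of Atp2b1, above the median of all windows. The share with a GC box among windows equally rich in G and C was not counted. A match to letters is a description of the sequence and not a binding site.

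The libraries held 16592672 to 21585750 counts. The calcium genes had between 288 and 5665 reads per library, which gives a counting error of 5.89% at the lowest and 1.33% at the highest. LMF replicate 4 stood apart from the other LMF libraries on the second principal component (-27.21 against 6.79 to 14.03, 10.7% of the variance), and LMF replicate 1 had the lowest sample weight (0.615, the others 0.953 to 1.18). On the first component LMF replicate 1 was also the LMF library nearest to Control. It lay at 19.36, the other LMF libraries at 24.31 to 26.49 and Control at -24.91 to -22.61. Without LMF replicate 1, 5047 of all genes were called, against 4845 with it. Calls in the set that are lost without LMF replicate 4 or LMF replicate 1 are given with their values. Of all tested genes 34.4% were called, against 63.6% of dendritic cell markers, 70.0% of macrophage markers and 60.0% of neutrophil markers. The share was 42.9% for mast cell and basophil markers and 16.7% for B cell markers. Of 11 tested dendritic cell markers Itgax, Flt3, Zbtb46, Ccr7 and Dpp4 rose and Cd74 and Ciita fell. Their summed level was 7608 to 7977 CPM in Control and 7397 to 8435 CPM in LMF (CPM, counts scaled to library size after TMM), with Cd209a near 0 in both. Of 10 tested macrophage markers 7 fell, with Vsig4 and Timd4 near 0. The list sum went from 6495 to 7228 CPM in Control to 4592 to 4793 CPM in LMF. Much of this fall was in Apoe, with a mean of 3162 CPM in Control and 1302 CPM in LMF. Csf1r (1819 and 1793 CPM), Cd68 (577.2 and 570.2 CPM) and Adgre1 (387.3 and 400.2 CPM) did not pass. Of 10 neutrophil markers 5 rose and 1 fell (list sum 1176 to 1196 against 1302 to 1492 CPM), and of 7 tested mast cell and basophil markers 3 rose and none fell (119.8 to 136.6 against 145.8 to 159.8 CPM). Of 6 tested B cell markers 1 fell (53.1 to 58.2 against 44.5 to 52.1 CPM), and of 7 tested T and NK cell markers none passed (11.9 to 13.6 against 11.6 to 15.2 CPM). The part of these other cells in the values that follow was not tested. In such bulk samples fewer cells of a type and less RNA per cell cannot be told apart.

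Across the set, 5 genes rose and 3 fell in LMF, and 2 did not pass. The test was edgeR's quasi-likelihood F test over all genes with Benjamini-Hochberg adjustment at 0.05, which called 34.4% of all tested genes (17.5% higher and 16.9% lower). For 5 genes the 4 LMF libraries lay wholly outside the range of the 4 Control libraries, 3 above and 2 below, as for 31.8% of all tested genes (16.1% above and 15.7% below). The median absolute log2 fold change was 0.27 in the set and 0.18 over all tested genes, and the median signed change was 0.13 and -0.0002. The comparison is not matched for level. From 49.0% (for Itpr3) to 95.5% (for Atp2a2) of tested genes had a lower mean log2 CPM than the gene of the set. The set was also chosen with earlier results known. Orai1, Orai2, Orai3, Stim2 and Atp2a2 passed in all 18 alternative fits, and Stim1, Itpr2 and Itpr3 did not. Without LMF replicate 4, Control replicate 1 or Control replicate 3, and on log2 FPKM, 5 genes passed, 3 higher and 2 lower. Over all genes the 3 fits without a library called 4425, 4355 and 4307 in that order. The fits on log2 FPKM called 4313 (pseudocount 1) and 4288 (pseudocount 0.1), against 4845 in the main fit.

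**Figure D1:**
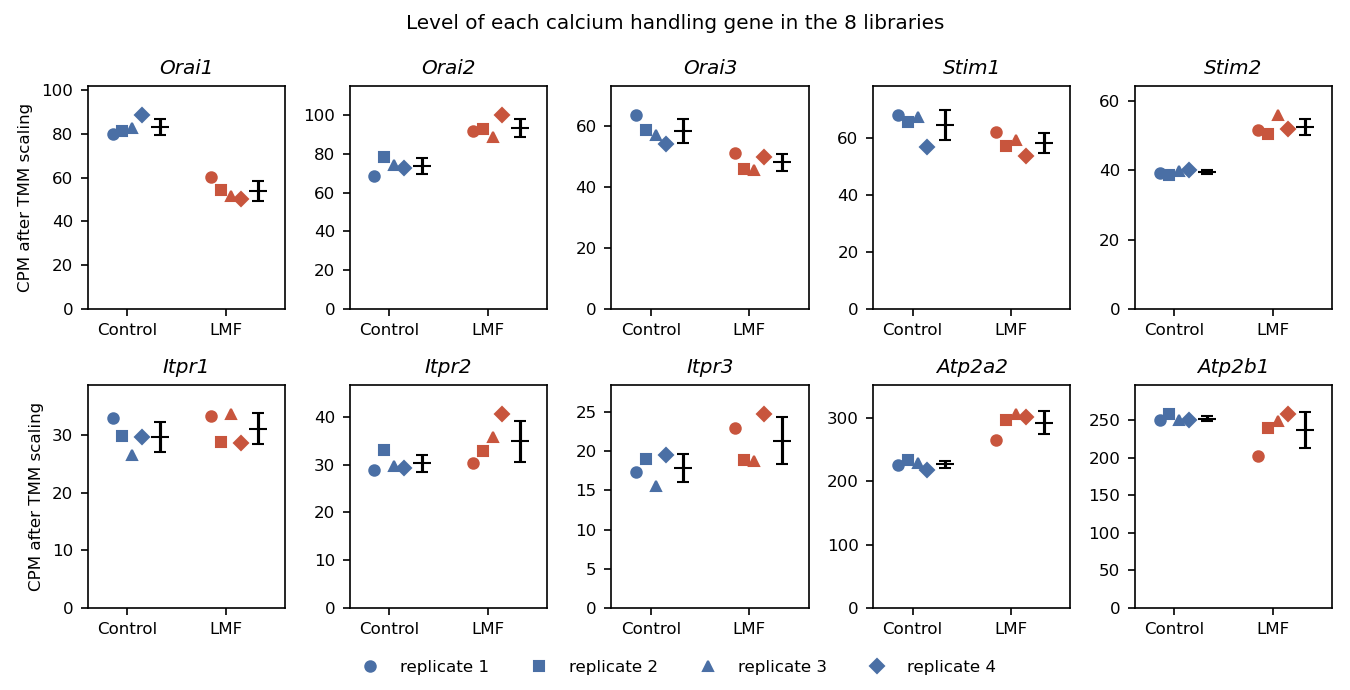
Level of each of the 10 calcium handling genes in CPM after TMM scaling, for the 4 Control (blue) and 4 LMF (red) libraries. Marker shapes are replicate numbers and black bars are mean ± SD (n = 4), and the groups do not overlap for Orai1, Orai2, Orai3, Stim2 and Atp2a2.

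Of the pore subunit genes, Orai1 and Orai3 fell and Orai2 rose. Orai1, the main pore subunit of the store-operated channel (ENSMUSG00000049686, chromosome 5 from 123153137 to 123168519), was at 79.9, 81.6, 82.8 and 88.7 CPM in Control replicates 1 to 4. In LMF replicates 1 to 4 it was at 60.4, 54.1, 51.4 and 50.2 CPM. Every LMF library lay below every Control library, and the highest LMF value belonged to replicate 1. The fall was from 83.2 ± 3.81 to 54.0 ± 4.57 CPM (mean ± SD, n = 4 each), which on the log2 scale is -0.62 ± 0.06 (SE, 95% interval -0.74 to -0.51, edgeR adjusted p = 3.77e-11). That is 0.65 of the Control level, and 90.9% of all tested genes had a smaller absolute change. Positions are those of the deposited table, whose build is not named and whose coordinates are not those of mm10.

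Orai2, a pore subunit that in mouse T cells joins Orai1 in mixed channels and lowers their current (ENSMUSG00000039747, chromosome 5 from 136176313 to 136199567), was at 68.5, 78.5, 74.6 and 72.9 CPM in Control. In LMF it was at 92.1, 92.8, 88.9 and 100.2 CPM, so that all LMF libraries lay above all Control libraries. It rose from 73.6 ± 4.13 to 93.5 ± 4.79 CPM (n = 4 each, log2 fold change 0.35 ± 0.05, adjusted p = 1.22e-06, edgeR). Orai3, the third pore subunit (ENSMUSG00000043964, chromosome 7 from 127368987 to 127374322), was at 63.7, 58.8, 57.0 and 54.2 CPM in Control and at 51.1, 46.1, 45.7 and 49.8 CPM in LMF. The groups did not overlap, with Control replicate 4 and LMF replicate 1 nearest to each other. Orai3 fell from 58.4 ± 4.01 to 48.2 ± 2.72 CPM (n = 4 each, log2 fold change -0.28 ± 0.06, adjusted p = 0.000267, edgeR).

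Of the ER calcium sensor genes, Stim2 rose and Stim1 was called lower only near the threshold. Stim2, the sensor that responds to small losses of stored calcium (ENSMUSG00000039156, chromosome 5 from 54155841 to 54278399), was at 39.2, 38.8, 39.9 and 40.2 CPM in Control and at 51.6, 50.6, 56.0 and 51.9 CPM in LMF. The Control values were close together and all LMF values lay above them. Stim2 rose from 39.5 ± 0.636 to 52.5 ± 2.39 CPM (n = 4 each, log2 fold change 0.41 ± 0.06, adjusted p = 4.73e-07, edgeR), the largest increase of the 10 genes. Stim1, the sensor needed for most store-operated entry (ENSMUSG00000030987, chromosome 7 from 101917013 to 102086526), was at 68.0, 65.5, 67.4 and 56.8 CPM in Control and at 62.0, 57.1, 59.4 and 53.8 CPM in LMF. The groups overlapped, since Control replicate 4 was below 3 of the 4 LMF libraries. It averaged 64.5 ± 5.19 CPM in Control, against 58.1 ± 3.48 CPM in LMF (n = 4 each, log2 fold change -0.15 ± 0.06, adjusted p = 0.0453, edgeR). This call is near the threshold and was made in 10 of 18 alternatives, with adjusted p from 0.00664 to 0.153. It was lost in the DESeq2 test (adjusted p = 0.0635), in both tests on log2 FPKM, and when Control replicate 1, 2 or 3 or LMF replicate 2 or 4 was left out. Without LMF replicate 4 the change was -0.12 (adjusted p = 0.144, edgeR).

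**Figure D2:**
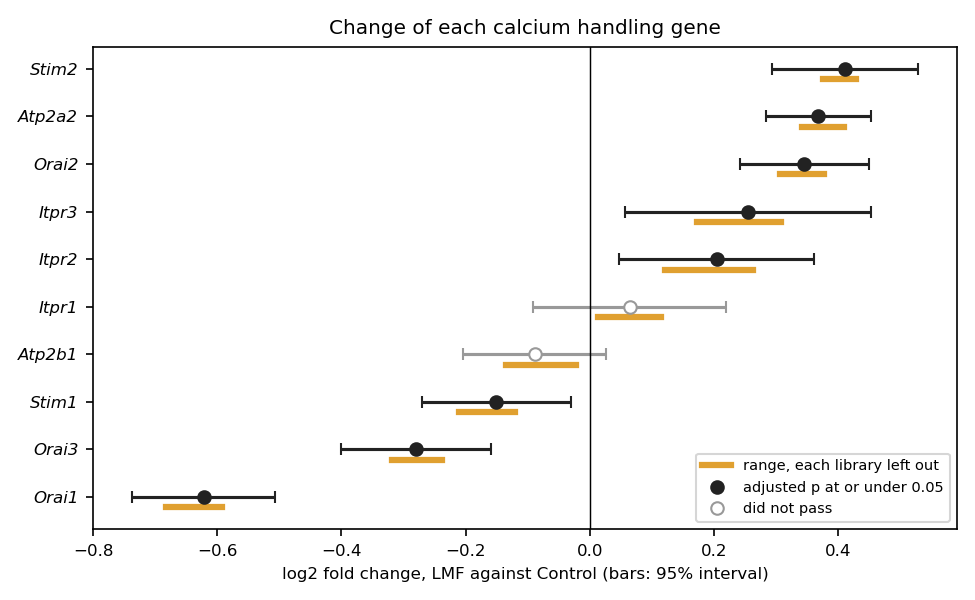
log2 fold change of LMF against Control for each gene (circles) with its 95% interval (bars). Filled circles passed at an adjusted p of 0.05, and orange lines give the range when each library was left out in turn. Stim2, Atp2a2 and Orai2 lie highest (0.41, 0.37 and 0.35) and Orai1 lowest (-0.62).

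Of the release channel genes, Itpr2 and Itpr3 passed near the threshold and Itpr1 did not pass. Itpr1, an inositol trisphosphate receptor best known from neurons (ENSMUSG00000030102, chromosome 6 from 108190057 to 108528070), was at 32.9, 29.9, 26.6 and 29.7 CPM in Control and at 33.3, 28.9, 33.6 and 28.7 CPM in LMF. The groups overlapped, and the gene did not pass (log2 fold change 0.06 ± 0.08, 95% interval -0.09 to 0.22, adjusted p = 0.563, edgeR). Itpr2, the second receptor (ENSMUSG00000030287, chromosome 6 from 146009797 to 146403721), was at 29.0, 33.0, 29.7 and 29.4 CPM in Control and at 30.5, 32.8, 35.7 and 40.6 CPM in LMF. Only LMF replicates 3 and 4 lay above all Control libraries. It averaged 30.3 ± 1.84 CPM in Control, against 34.9 ± 4.36 CPM in LMF (n = 4 each, log2 fold change 0.20 ± 0.08, adjusted p = 0.0382, edgeR). Without LMF replicate 4 the change was 0.12 (adjusted p = 0.251).

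Itpr3, the third receptor (ENSMUSG00000042644, chromosome 17 from 27276278 to 27341197), had the fewest reads of the set. It was at 17.4, 19.0, 15.6 and 19.6 CPM in Control and at 22.9, 18.9, 18.8 and 24.7 CPM in LMF. LMF replicates 1 and 4 lay above all Control libraries and the other two lay among them. It averaged 17.9 ± 1.80 CPM in Control, against 21.3 ± 2.98 CPM in LMF (n = 4 each, log2 fold change 0.25 ± 0.10, adjusted p = 0.0403, edgeR). Without LMF replicate 4 the change was 0.17 (adjusted p = 0.198). Over the 18 alternatives Itpr2 passed in 10 (adjusted p 0.00495 to 0.251) and Itpr3 in 11 (0.0192 to 0.198). Calls were lost without Control replicate 1 or 3 for both, without Control replicate 4 or LMF replicate 3 for Itpr2, and without LMF replicate 1 for Itpr3 (0.21, adjusted p = 0.0948, edgeR).

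Of the 2 pump genes, Atp2a2 rose and Atp2b1 did not pass. Atp2a2, the pump SERCA2 that fills the ER (ENSMUSG00000029467, chromosome 5 from 122591576 to 122640288), was at 226.3, 233.0, 228.3 and 218.4 CPM in Control. In LMF it was at 265.2, 296.3, 305.7 and 301.7 CPM, above all Control libraries in each case, with replicate 1 the lowest. It rose from 226.5 ± 6.09 to 292.2 ± 18.4 CPM (n = 4 each, log2 fold change 0.37 ± 0.04, adjusted p = 5.77e-09, edgeR). Atp2b1, the plasma membrane pump PMCA1 (ENSMUSG00000019943, chromosome 10 from 98750268 to 98862005), was at 250.8, 258.1, 250.2 and 250.6 CPM in Control and at 202.4, 240.0, 249.2 and 257.9 CPM in LMF. The Control libraries were close together, while LMF replicate 1 was the lowest of all and LMF replicate 4 lay within the Control range. Atp2b1 did not pass (log2 fold change -0.09 ± 0.05, 95% interval -0.20 to 0.03, adjusted p = 0.235, edgeR). Without LMF replicate 1 the change was -0.02 (adjusted p = 0.697).

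Spread between libraries of a group also differed. In Control the coefficient of variation was lowest for Atp2b1 (1.51%) and Stim2 (1.61%) and highest for Itpr3 (10.0%), the gene with the fewest reads. In LMF it was 10.3% for Atp2b1, 12.5% for Itpr2 and 13.96% for Itpr3, and 4.55% to 8.71% for the other genes. The coefficient was lower in LMF than in Control for Orai2, Orai3, Stim1 and Itpr1 and higher for the other genes, and these differences in spread were not tested.

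Levels of different genes were compared on the deposited FPKM, which divides by gene length. For all 10 genes that length equalled the merged exon length of GENCODE M21, from 2141 bases for Orai3 to 18319 bases for Itpr1, and not the length listed in the table. The listed length is 2.54 times the FPKM length for Atp2a2, 1.93 times for Orai1 and 1.04 times for Itpr3. The order that follows is therefore that on the FPKM length, and it is not the same with the listed length. In Control the order was Atp2a2 (37.3 ± 1.13 FPKM, mean ± SD, n = 4), Orai1 (36.3 ± 1.43), Orai3 (27.3 ± 2.06), Atp2b1 (16.6 ± 0.266), Orai2 (12.1 ± 0.641), Stim2 (7.71 ± 0.104), Stim1 (6.22 ± 0.536), Itpr2 (2.05 ± 0.123), Itpr3 (1.98 ± 0.192) and Itpr1 (1.63 ± 0.149). The ranges of neighbours overlapped for Atp2a2 and Orai1, for Itpr2 and Itpr3, and for Itpr3 and Itpr1, and the other neighbours were apart. In LMF Atp2a2 was at 47.9 ± 2.98 FPKM, well above Orai1 at 23.5 ± 2.01 FPKM, and Orai1 now overlapped with Orai3 (22.4 ± 1.36 FPKM). Orai2 (15.3 ± 0.803 FPKM) overlapped with Atp2b1 (15.5 ± 1.595 FPKM) in LMF, and Itpr3 (2.36 ± 0.339 FPKM) with Itpr2 (2.35 ± 0.299 FPKM).

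**Figure D3:**
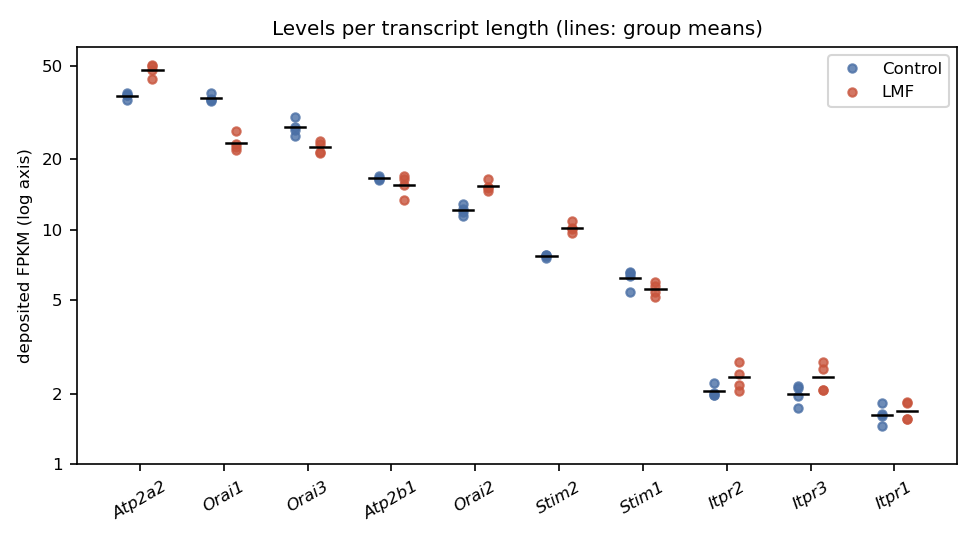
Deposited FPKM of each gene (log axis) in the 4 Control (blue) and 4 LMF (red) libraries, ordered by the Control mean, with lines at the group means. Atp2a2 and Orai1 are level in Control (37.3 and 36.3 FPKM) and apart in LMF (47.9 and 23.5 FPKM).

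The make-up of the Orai transcripts shifted from Orai1 towards Orai2. Orai1 made up 45.9%, 46.8%, 48.1% and 50.9% of the summed Orai FPKM in the Control libraries and 40.3%, 39.1%, 38.4% and 35.5% in the LMF libraries. Orai2 made up 14.9% to 17.0% in Control and 23.2% to 26.8% in LMF, also with no overlap. The Orai3 share was 36.1% ± 2.44 in Control and 36.6% ± 0.87 in LMF (mean ± SD, n = 4 each), and the groups overlapped. The ratio of Orai1 to Orai2, both in FPKM, was 2.75 to 3.22 in Control and 1.33 to 1.74 in LMF. The summed Orai FPKM was 75.1 to 76.6 in Control and 58.4 to 65.4 in LMF. Since Orai1 fell and Orai2 rose, each with no overlap, the separation of their ratio was fixed by those changes. Shares and ratios, here and for the other families, restate the changes of single genes, so a separation is not a further result. They are descriptions, with no test, because the genes were chosen with earlier results known.

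In the Stim pair the balance moved towards Stim2. Stim2 made up 53.8%, 54.5%, 54.5% and 58.8% of the summed Stim FPKM in Control and 62.7%, 64.2%, 65.6% and 66.1% in LMF, so that the groups did not overlap. The summed Stim FPKM was 13.2 to 14.3 in Control and 15.1 to 16.6 in LMF. With the length listed in the table Stim2 made up 47.9% ± 2.35 in Control and 57.5% ± 1.63 in LMF, so that which Stim gene is the more abundant depends on the length in Control and not in LMF. The ratio of Orai1 to Stim1 in FPKM was 5.31 to 7.05 in Control and 3.92 to 4.40 in LMF, and that of Orai2 to Stim2 overlapped between groups (1.48 to 1.71 and 1.34 to 1.63). Among the Itpr genes no share was separate between groups, with Itpr3 at 35.0% ± 1.89 in Control and 36.7% ± 3.11 in LMF. The ratio of Atp2a2 to Atp2b1 was 2.18 to 2.28 in Control and 2.93 to 3.28 in LMF, in FPKM and with no overlap.

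**Figure D4:**
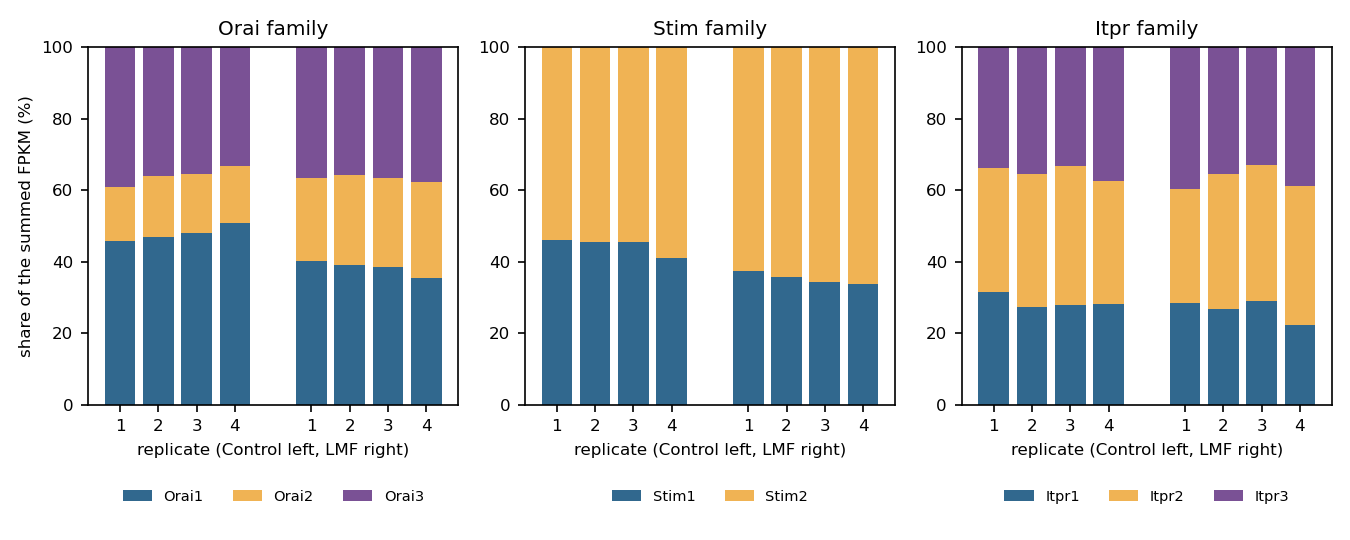
Share of the summed FPKM (%) that each gene takes in the Orai, Stim and Itpr families, 1 bar per library, with the 4 Control libraries on the left and the 4 LMF libraries on the right. The Orai2 share is 14.9% to 17.0% in Control and 23.2% to 26.8% in LMF, and the Itpr shares overlap.

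The table lists other genes that overlap 7 of the 10 loci on either strand, and the most abundant of them reached 11 reads in a library. Summed over the 8 libraries, the reads listed for any one of them came to at most 0.12% of those listed for the calcium gene, here Atp2a2. Reads of such a gene that were counted to the calcium gene cannot be seen in these values. Of the 50-base sequences in the GENCODE M21 transcripts of each gene, at most 3.93% (Atp2a2) also occurred in transcripts of another gene, and none did for Orai1, Orai3 and Stim1.

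Other genes of calcium handling were read from 6 lists of 106 genes, of which 80 were tested. In all, 21 rose and 14 fell (43.8%, with 34.4% over all tested genes), and the median log2 fold change was 0.04. Among Orai and Stim partners 5 of 16 tested genes rose and 4 fell (56.2% called). Sting1, the ER adaptor of the DNA-sensing pathway, fell from 127.0 ± 1.59 to 110.2 ± 1.96 CPM (log2 fold change -0.20 ± 0.04). Ubqln1, a ubiquitin-binding shuttle protein, rose (0.18 ± 0.04), and Cracr2b, a calcium-binding protein related to the channel regulator Cracr2a, fell from a low 4.80 ± 0.626 CPM (-0.78 ± 0.18). Without Control replicate 1 or 3 or LMF replicate 2 or 3, and with no filter on low counts, 3 of these partner genes were called higher.

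Among other pumps and exchangers 1 of 7 tested genes rose and 2 fell (42.9% called, with 34.4% over all tested genes). Atp2b4, the plasma membrane pump PMCA4, rose from 6.26 ± 0.599 to 11.8 ± 1.72 CPM (log2 fold change 0.91 ± 0.13, adjusted p = 5.65e-07, edgeR, n = 4 each), well below the CPM of Atp2b1. Slc8b1, the sodium-calcium exchanger of mitochondria, fell (-0.28 ± 0.04), as did Atp2c1, the Golgi pump for calcium and manganese (-0.16 ± 0.05). Atp2a3, the pump SERCA3, was at a mean of 160.4 CPM in Control, against 157.7 CPM in LMF, and did not pass (-0.02 ± 0.04, adjusted p = 0.712, edgeR). Atp2a3 was picked after its values were seen, for its kinship to Atp2a2. Without LMF replicate 1, and with limma-voom, 2 genes of this list were called higher. Of 5 tested pump regulators Vmp1 rose, an ER protein of autophagy that acts on SERCA (0.24 ± 0.05), and the other 4 did not pass (20.0% called). The muscle regulators Sln and Strit1 had no read in any library.

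Among genes of inositol trisphosphate supply and receptor control 1 of 23 tested rose, 5 fell and 17 did not pass. This was 26.1% called, with 34.4% over all tested genes. Itprid2, which binds and places the receptors, rose from 167.0 ± 3.02 to 217.8 ± 6.05 CPM (log2 fold change 0.38 ± 0.04, adjusted p = 3.96e-10, edgeR, n = 4 each). Lrmp, an ER protein that binds the same receptors, fell (-0.38 ± 0.05), as did the lipid phosphatase Inpp5d (-0.26 ± 0.04). The lowest point of this list in the plot of the lists is Itpka, a kinase of inositol trisphosphate. It had 0 to 42 reads per library, was picked out after its values were seen, and was called lower (-2.31 ± 0.44). Without Control replicate 3, 2 genes of the list were called higher.

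In the list of ryanodine receptors and luminal calcium-binding proteins, 7 of 11 tested genes rose and 1 fell. This was 72.7% called, with 34.4% over all tested genes, and the median log2 fold change of the list was 0.22. Hspa5, the ER chaperone BiP, rose from 610.4 ± 12.98 to 933.9 ± 58.8 CPM (0.61 ± 0.04, adjusted p = 5.76e-15, edgeR, n = 4 each). Calr, the calcium buffer calreticulin, rose by 0.39 ± 0.04 and Calu, calumenin, by 0.40 ± 0.05. The gene that fell was Rcn3, with 5 to 38 reads per library (named after its values were seen), and with a filter that asked for a CPM of 1 in at least 4 libraries, or without Control replicate 3, LMF replicate 2 or LMF replicate 4 none was called lower, while without LMF replicate 1 the number was 2. Ryr1, the only ryanodine receptor of the 3 with enough reads to be tested and also named after its values were seen, averaged 15.4 CPM in Control, against 16.9 CPM in LMF, and did not pass (0.14 ± 0.09, adjusted p = 0.284, edgeR). Among mitochondrial uptake and contact genes 6 of 18 tested rose and 2 fell (44.4% called). The smallest adjusted p-values belonged to the chaperone Hspa9 (0.38 ± 0.04), the contact protein Vapa (0.20 ± 0.04) and the ER tether Pdzd8 (0.24 ± 0.06), all of which rose. Without LMF replicate 2, 3 genes of that list were called higher.

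**Figure D5:**
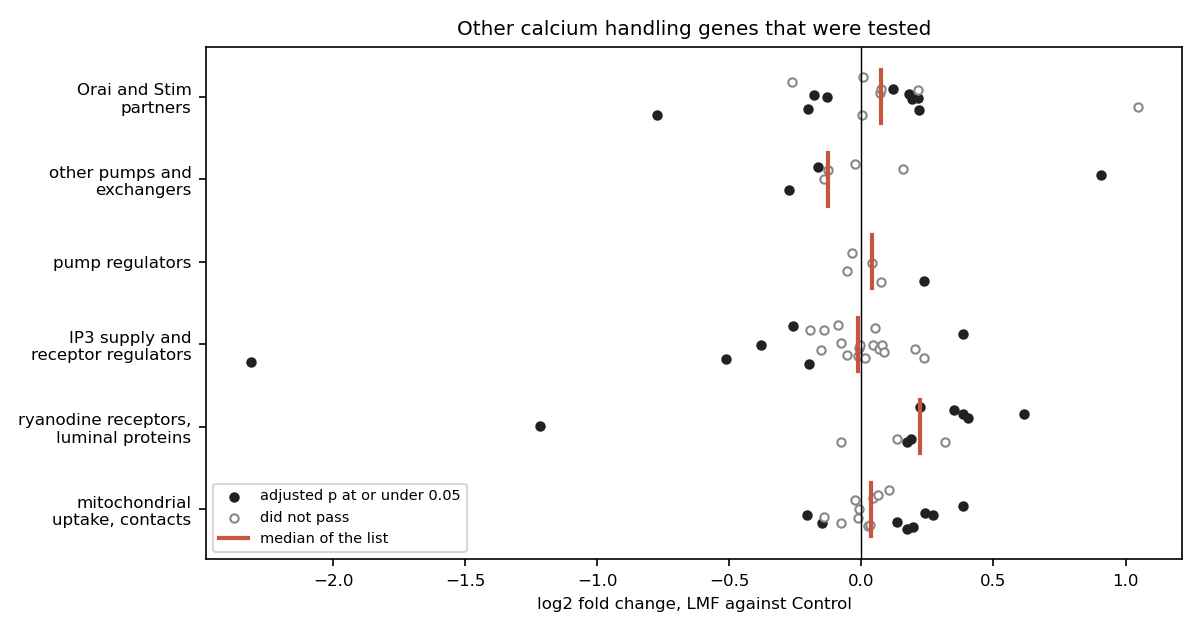
log2 fold change of LMF against Control for the 80 tested genes of the 6 calcium lists, 1 point per gene, filled where the adjusted p was at or under 0.05. Red lines are list medians, the highest being 0.22 for the list with the luminal proteins.

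The genes most like Orai1 over the 8 libraries were taken from 4021 tested genes of similar level, by the distance between log2 CPM values centred on each gene's Control mean. The nearest were Abtb1 (distance 0.14), Ifitm6 (0.16), Plekhg3 (0.17), Cyp4f18 (0.18) and Hhex (0.19), where the median distance was 1.29. Their log2 fold changes ran from -0.68 to -0.58, which the choice by likeness fixes.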

How the data were processed

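RNA was measured in 4 Control and 4 LMF libraries, grouped by their titles. The authors deposited 1 table with raw read counts per gene and FPKM, per the file headers. The submitters' processing notes name Trimmomatic, HISAT2 (2.0.5), HTSeq, DESeq2 and the build mm10. Whether reads were counted by strand is not given in the sources used here, so reads of overlapping genes on opposite strands cannot be told apart. The deposited FPKM was used only to compare levels between genes and in 2 alternatives.

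The deposited counts were tested in R 4.3.3 with edgeR 4.0.16: filterByExpr, TMM scaling, a robust quasi-likelihood F test of LMF against Control, and Benjamini-Hochberg adjustment over 14074 genes at 0.05. CPM are counts scaled to library size after TMM. Standard errors were taken from the F statistic and the fitted change, and intervals are 95%. The common biological coefficient of variation was 0.0661 with 6 residual degrees of freedom. The fitting steps were tested on simulated data. Alternatives used DESeq2 1.42.0, limma 3.58.1, other filters, log2 FPKM with pseudocounts of 1 and 0.1, a replicate block, and each library left out.

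The genes and lists were chosen with earlier results of these data known. All 10 genes are described. From each list the 3 called genes with the smallest adjusted p are named, or the 1 tested gene with the smallest where fewer than 3 were called. Atp2a3, Itpka, Rcn3 and Ryr1 were named outside this rule, after their values were seen. The most alike genes are the 5 nearest to Orai1 within 1 log2 CPM. No pair of libraries of a group was the same library deposited again within sampling noise (chi-square per degree of freedom 3.50 to 7.80 within groups, 26.6 to 35.2 between). This does not show that they are independent cultures or mice. A further group of the study was not analysed here.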

Additional observations from a re-analysis of the deposited data

Results flagged for a closer look

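In 5 of 52 groups of 4 libraries 1 value lay far from the other 3, by Dixon's 95% criterion on the gap over the range, where chance gives about 2.6. Atp2b1 was at 258.1 CPM in Control replicate 2 (250.2 to 250.8 CPM in the others). Vmp1 was at 165.9 CPM in LMF replicate 1 (201.3 to 203.5 CPM in the others). Hspa5 was at 846.7 CPM in the same library (950.9 to 970.2 CPM in the others). In LMF replicate 2 Inpp5d was at 252.2 CPM (263.3 to 264.4 CPM in the others). Vapa was at 154.4 CPM in that library (144.1 to 145.5 CPM in the others).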

How the results depend on the processing

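Orai1, Orai2, Orai3, Stim2 and Atp2a2 kept their direction and their call in all 18 alternatives, Itpr1 and Atp2b1 passed in none of the 18, and no gene of the set reversed. The DESeq2 test gave Stim1 -0.151 (adjusted p = 0.0635) and Itpr2 0.205 (0.0524), and limma-voom gave Itpr3 0.234 (0.0544). On log2(FPKM + 1) the values were -0.133 for Stim1, 0.133 for Itpr2 and 0.167 for Itpr3, and on log2(FPKM + 0.1) they were -0.153, 0.184 and 0.232. In both FPKM fits 5 genes of the set were called, 3 of them higher, and over all genes 4313 and 4288 were called. The cause of these changes was not tested. With each library left out in turn 5 to 7 genes of the set were called, 3 to 5 higher and 2 to 3 lower. The log2 fold change then ran from -0.21 to -0.121 for Stim1, from 0.121 to 0.262 for Itpr2 and from 0.173 to 0.308 for Itpr3. Over all genes 4307 to 5047 were called with a library left out (2182 to 2516 higher and 2125 to 2531 lower). The 6 lists then had 15 to 21 genes called higher and 13 to 16 lower. With the replicate number as a block 4774 genes were called (4845 without it), with 8 of the set (Stim1 -0.149, adjusted p = 0.0363; Itpr3 0.251, 0.0284), and no call in the set changed. Same-numbered libraries did not deviate together (correlations 0.005, 0.028, -0.001 and -0.013), and only replicate 2 correlated best with its own number, so the numbers were not taken as pairs.

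With the length listed in the table in place of the FPKM length, family shares were 50.2% for Orai1 in Control, 18.1% and 28.1% for Orai2 in Control and LMF, 31.8% and 32.03% for Orai3, 52.1% and 42.5% for Stim1, 47.9% and 57.5% for Stim2, 22.3% and 20.4% for Itpr1, 25.9% and 25.9% for Itpr2, and 51.8% and 53.7% for Itpr3. The listed length is 1.04 to 2.61 times the FPKM length, and this order of Stim1 and Stim2 in Control is the opposite of that on FPKM. Depth limits Itpr3 most, at 288 reads in the lowest library.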

Other observations

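The deposited table gives a calcium signalling pathway label to 184 genes, and all 10 genes of the set carry it. Of the 105 labelled genes that were tested, 28 rose, 20 fell and 57 did not pass (45.7% called, with 34.4% over all tested genes). This label was looked at after the data had been seen.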
